A study of Homo sapiens with 4 samples.

Results

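The MCM and GINS genes examined here encode the machine that opens DNA at the start of S phase. They are MCM2, MCM3, MCM4, MCM5, MCM6, MCM7, MCM10, GINS1, GINS2 and GINS3, and every non-control probe carrying 1 of these names was taken, whatever its signal. This gave 10 genes and 12 probes, out of 27224 genes and 34127 probes on the array. Expression was measured in LNCaP and PC3, human prostate cancer cell lines of which the former depends on androgen and the latter does not, with total RNA taken after 24 h. In each line 1 culture was left untreated (control) and 1 was exposed to 10 µM atorvastatin (ATO), a statin that inhibits HMG-CoA reductase. Per the study's methods the cells were at low density when ATO was added. The labels name no vehicle for the controls. The 4 groups of 1 array each (control and ATO in LNCaP cells, control and ATO in PC3 cells) have no replicates, so none of the differences within a line has a replicate check.

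The MCM2 to MCM7 proteins form a ring of 6 subunits that is loaded onto origins as an inactive pair during G1 phase, a step called licensing. At the start of S phase the ring is joined by CDC45 and by the GINS complex, which together make the active helicase that unwinds DNA ahead of the polymerases. MCM10 is not a subunit of the ring; it is needed for the loaded helicase to start moving and to connect with polymerase alpha. Genes of this machinery are transcribed mainly from late G1 into S phase, in large part under E2F transcription factors, and are used as markers of proliferating cells in prostate and other tissues. RNA from a whole culture was measured, so fewer cells in S phase and less of these transcripts in each cell cannot be told apart.

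Because all the members were lower with ATO in PC3 cells (values follow), their promoters were searched for E2F words. RefSeq promoters of the GRCh38.p14 assembly, from 250 bases before to 50 bases after the annotated start, were at hand for 8 of the 10 genes; MCM4 and MCM5 were not matched. The words searched on both strands were TTTCCCGC, TTTCGCGC, TTTGCCGC and TTTGGCGC, which can overlap each other. A word was found in 7 of the 8 genes, against 3.99% of the 27305 genes in the table and 3.31% of its 35116 promoters. MCM10 held none of these letters in its window, and of the 3 promoters of MCM7 only the most upstream held any. The stretches that carry the words follow, 5′ to 3′ on the strand of the gene, with the words in capitals.
MCM6 (chr2:135876510-135876615, minus strand): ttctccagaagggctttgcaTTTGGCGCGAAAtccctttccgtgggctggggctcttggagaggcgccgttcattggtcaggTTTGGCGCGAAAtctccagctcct
MCM2 (chr3:127598393-127598424, plus strand): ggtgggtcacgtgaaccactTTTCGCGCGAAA
MCM3 (chr6:52284729-52284806, minus strand): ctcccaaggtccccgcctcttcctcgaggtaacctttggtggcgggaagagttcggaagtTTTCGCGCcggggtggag
MCM7 (chr7:100101387-100101466, minus strand): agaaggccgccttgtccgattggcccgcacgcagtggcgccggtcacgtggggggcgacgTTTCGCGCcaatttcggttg
GINS1 (chr20:25407658-25407686, plus strand): ctattggctagctttgttcgGCGCCAAAg
GINS2 (chr16:85688966-85689005, minus strand): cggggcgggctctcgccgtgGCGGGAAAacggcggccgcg
GINS3 (chr16:58392446-58392484, plus strand): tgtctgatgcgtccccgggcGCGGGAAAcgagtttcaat

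In 6 of the 7 genes a word lay within 31 bases of the start. They began 4 bases before it in MCM3, 9 bases before it in MCM7, 5 bases before it in GINS3 and 31 bases before it in GINS2, and just after it in MCM2 and GINS1. MCM6 was the exception, with the same 12 bases, each read as a word on both strands, beginning 152 and 90 bases before the start. MCM3 and MCM7 held a further word at 174 and 187 bases before the start. The CCAAT box, a common promoter element searched as CCAAT on both strands, was found in 6 of the 8 genes and in 39.7% of all genes. A match is a description of the letters and not evidence of binding, and the words and the genes were chosen with the expression values known.

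**Figure D1:**
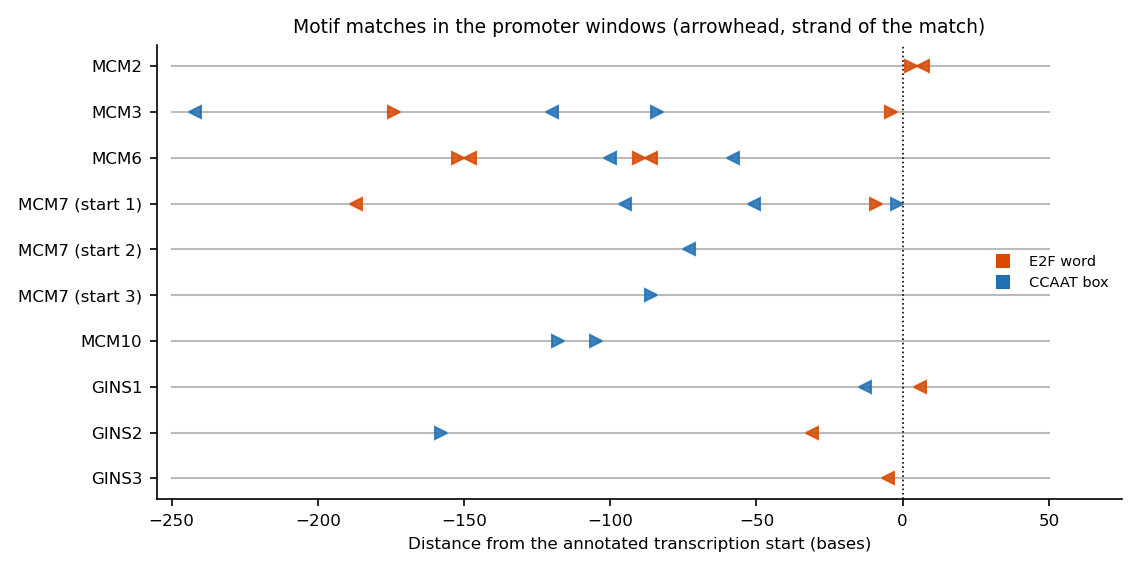
Position of E2F words (orange) and CCAAT boxes (blue) relative to the annotated transcription start, in bases, for each promoter window of the 8 genes that had one; arrowheads give the strand of the match. MCM2, MCM3, MCM7, GINS1, GINS2 and GINS3 each have an orange mark within 31 bases of the start, MCM3 and MCM7 have a further one at 174 and 187 bases upstream, those of MCM6 lie from 152 to 86 bases upstream, and MCM10 has none.

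The arrays are described by their processed intensity, a background-subtracted brightness in arbitrary units. Intensities below are given as in the files. Ratios were formed after each array was divided by its 75th percentile, which ranged from 496.8 to 588.2 units, and are written as the log2 ratio of ATO over control, so that a negative value means lower with ATO. The error of a ratio is the one the scanner software estimates for the spots. It was between 0.20 and 0.43 on the log2 scale for the members and covers technical error only. For the members other than MCM10 it was 0.20 or 0.21, whatever the intensity or the number of spots. For these genes 2 errors are thus a nearly fixed cutoff, which lies below 1.5-fold. The spread of a log2 ratio taken from probes with repeated spots was smaller, at 0.13. Between 48.5% and 52.9% of the gene spots on an array were well above background, and 11 of the 12 member probes were so on all 4 arrays. The defining markers bore out the labels of the lines, with KLK3 and KLK2 not well above background in PC3 cells and CAV1 and CD44 not well above background in LNCaP cells. The 7 sterol response genes, which statins are known to induce, were all at least 1.5-fold higher with ATO in LNCaP cells and 6 of them were in PC3 cells. Over all counted genes, 380 of 13739 were so in LNCaP cells and 1133 of 13815 in PC3 cells.

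All 10 genes were lower with ATO in PC3 cells, between 1.55-fold and at least 3.46-fold. Each difference was larger than 2 times its technical error, which for all but MCM10 any difference past 1.5-fold would be. In LNCaP cells 9 of the 10 were also lower, but by less, and 6236 of the 13739 counted genes were below 0. There 4 of the 10 differed by more than 2 errors and only MCM10 reached 1.5-fold. The array of PC3 cells with ATO held the lowest scaled level of every member. For 8 of them it lay more than 2 errors under the next array, the exceptions being MCM3 (1.83 errors) and GINS3 (1.55 errors). The share of all genes with their lowest level on that array was not counted. The plot of intensities by array shows the values that follow.

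**Figure D2:**
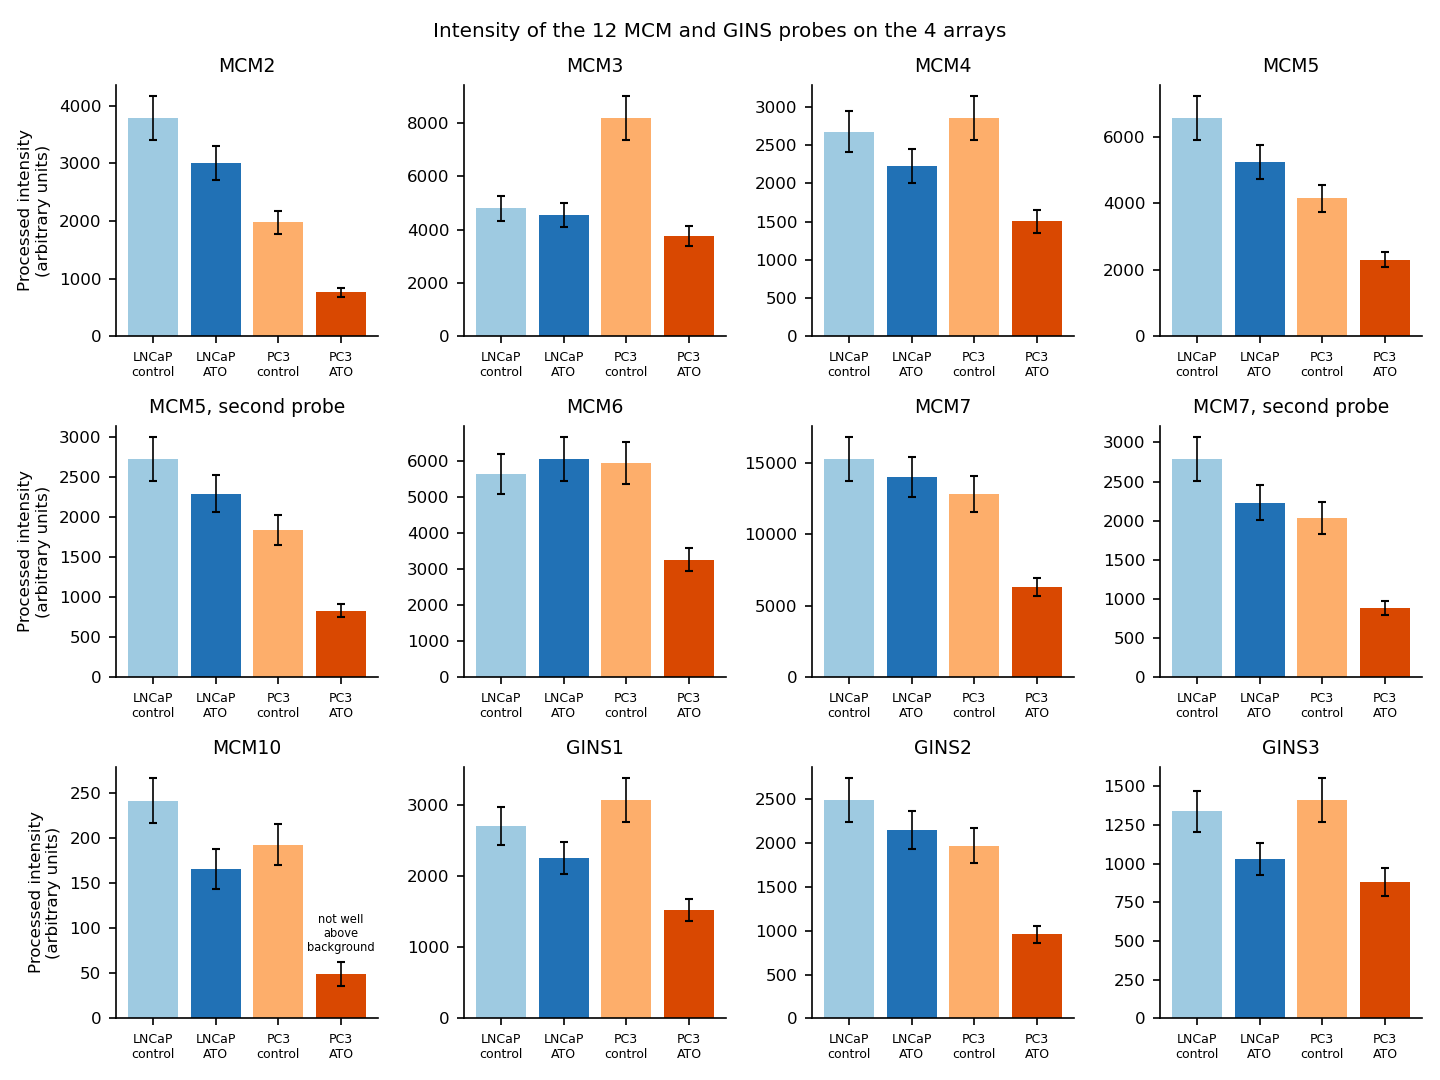
Processed intensity (arbitrary units, linear axes from 0) of the 12 probes on the control and ATO arrays of LNCaP cells (blue) and of PC3 cells (orange), 1 array a group; bars are single values and whiskers the technical error estimated by the scanner software. The PC3 ATO bar is the lowest in every panel, and for MCM10, at 49.3 units, it is not well above background.

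Among the genes of the ring, MCM2 differed most. It encodes the subunit that also binds histones H3 and H4, and its probe lies at chr3:128823495-128823554 (hg18, plus strand). Its intensity was 3783 units without and 3006 with ATO in LNCaP cells, and 1976 without and 765.4 with ATO in PC3 cells. ATO was 2.50-fold lower than control in PC3 cells (log2 ratio -1.32 ± 0.21, technical error) and 1.35-fold lower in LNCaP cells (log2 ratio -0.43 ± 0.20). From PC3 ATO up to LNCaP control, each step in the order of its scaled levels was larger than 2 errors, which among the other members was so for MCM5 alone.

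MCM3, whose product sits between those of MCM5 and MCM7 in the ring, has its probe at chr6:52236852-52236911 (hg18, minus strand). Its intensity was 4794 units without and 4556 with ATO in LNCaP cells, and 8170 without and 3759 with ATO in PC3 cells. On the scaled level the PC3 control array was the highest, which was so for no other member. With ATO it was 2.10-fold lower in PC3 cells (log2 ratio -1.07 ± 0.20), and in LNCaP cells the log2 ratio was -0.17 ± 0.20, within 1 error of no difference. The level in PC3 ATO lay 1.83 errors under that of LNCaP ATO.

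MCM4, MCM6 and MCM7 form the core of the ring that has helicase activity by itself. MCM4 (chr8:49050887-49050946, plus strand) gave 2675 units without and 2231 with ATO in LNCaP cells, and 2851 without and 1505 with ATO in PC3 cells. It was 1.83-fold lower with ATO in PC3 cells (log2 ratio -0.87 ± 0.20), and the log2 ratio in LNCaP cells was -0.36 ± 0.20. Its 3 higher arrays did not differ from their neighbours by more than 2 errors.

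MCM6 (chr2:136314687-136314746, minus strand) gave 5633 units without and 6041 with ATO in LNCaP cells, and 5937 without and 3261 with ATO in PC3 cells. It was 1.76-fold lower with ATO in PC3 cells (log2 ratio -0.82 ± 0.20), whereas in LNCaP cells the log2 ratio was 0.00 ± 0.20, and this was the member without a lower value there. The spot lies near the lower edge of the array, where its local background was 216 units in LNCaP ATO against 140 in LNCaP control and between 99.0 and 110.5 in PC3 cells. With normexp background correction, which uses that local background, the log2 ratio in LNCaP cells was -0.32. Its sign in LNCaP cells changed under 4 of 6 alternatives, so no direction is given for MCM6 in that line.

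MCM7 was measured by 2 probes. The brighter (chr7:99528456-99528515, minus strand) gave 15258 units without and 14011 with ATO in LNCaP cells, and 12838 without and 6292 with ATO in PC3 cells. The other (chr7:99535213-99535272, minus strand) gave 2784, 2230, 2030 and 889 units on the same arrays in that order. Both were lower with ATO in PC3 cells, by 1.97-fold and 2.21-fold, and their log2 ratios in LNCaP cells were -0.22 and -0.42.

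MCM5, which forms with MCM2 the gate through which DNA enters the ring, also had 2 probes. They are shown because they read different stretches of the transcript and differ in their ratio; both keep an open reading frame over all 60 bases. The brighter one covers 872 bases of the genome, so that it is split by at least 1 intron.
MCM5, brighter probe (hg18, chr22:34149307-34150178, plus strand): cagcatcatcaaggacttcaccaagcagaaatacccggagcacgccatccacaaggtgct
MCM5, other probe (hg18, chr22:34143789-34143848, plus strand): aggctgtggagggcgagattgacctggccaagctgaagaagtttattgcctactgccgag

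The brighter MCM5 probe gave 6561 units without and 5244 with ATO in LNCaP cells, and 4150 without and 2309 with ATO in PC3 cells. The other gave 2719, 2291, 1840 and 833 units on the same arrays in that order. With ATO they were lower by 1.74-fold and 2.14-fold in PC3 cells, so that only the dimmer probe passed 2-fold. In LNCaP cells their log2 ratios were -0.42 and -0.35. No member probe shared a run of more than 9 bases with a probe of another member, on either strand.

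MCM10 was the dimmest member. Its probe (chr10:13291998-13292057, plus strand) gave 240.8 units without and 165.5 with ATO in LNCaP cells, and 192.3 without and 49.3 with ATO in PC3 cells, the last of which was not well above background. Set against the lowest intensity well above background on that array, it was at least 3.46-fold lower with ATO in PC3 cells. With normexp background correction, which adds an offset of 50 units, the log2 ratio in PC3 cells was -0.94. In LNCaP cells it was 1.56-fold lower (log2 ratio -0.64 ± 0.24), the one member past 1.5-fold in that line, but this call was lost on spike-in probes (-0.51) and with normexp (-0.49).

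The GINS genes encode subunits of a complex of 4 proteins that holds CDC45 onto the ring. GINS1 (chr20:25377111-25377170, plus strand) gave 2713 units without and 2259 with ATO in LNCaP cells, and 3073 without and 1532 with ATO in PC3 cells. It was 1.94-fold lower with ATO in PC3 cells (log2 ratio -0.96 ± 0.20), and the log2 ratio in LNCaP cells was -0.36 ± 0.20. The control levels of the lines differed by less than 1 error.

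GINS2 (chr16:84269155-84269214, minus strand) is the member printed on 10 spots of each array, which shows the spread of repeated spots directly. The mean was 2492 ± 107 units (SD, 10 spots; 2335 to 2685) in LNCaP control and 2157 ± 131 units (10 spots; 1959 to 2344) in LNCaP ATO. In PC3 control it was 1974 ± 117 units (10 spots; 1797 to 2195) and in PC3 ATO 963 ± 28.7 units (9 spots, 1 outlier spot being left out; 923.4 to 1009). The spots of PC3 ATO and PC3 control did not overlap. Those of the LNCaP arrays overlapped as given in the files and did not once each array was divided by its 75th percentile (4.70 to 5.40 in control and 3.68 to 4.40 with ATO). The log2 ratio was -0.99 ± 0.21 in PC3 cells and -0.31 ± 0.20 in LNCaP cells. These spots are repeats of 1 hybridised sample and say nothing of the spread between cultures.

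GINS3 (chr16:56997300-56997359, plus strand) differed least between the lines. It gave 1338 units without and 1028 with ATO in LNCaP cells, and 1409 without and 881 with ATO in PC3 cells. ATO was 1.55-fold lower than control in PC3 cells (log2 ratio -0.63 ± 0.21) and 1.40-fold lower in LNCaP cells (log2 ratio -0.48 ± 0.20). GINS3 was the smallest difference of the members in PC3 cells and the second largest in LNCaP cells.

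Over the members, the median log2 ratio in PC3 cells was -0.97, against -0.01 over the 13815 genes counted there (quartiles -0.27 and 0.24). All 10 were at least 1.5-fold lower, as were 10.3% of the counted genes, and 3 of them (MCM2, MCM3 and MCM10) were at least 2-fold lower, as were 3.79% of the counted genes. Which members passed 2-fold depended on the setting. MCM2 did so under all 6 alternatives of scaling, background and spot handling. MCM3 fell short on the 50th percentile (-0.88) and with normexp (-0.95). MCM10 fell short with normexp, under which MCM6 (-1.20) and GINS1 (-1.04) passed instead. On quantiles MCM7 (-1.02) and GINS2 (-1.01) passed as well, and on spike-in probes MCM7 (-1.06), GINS1 (-1.04) and GINS2 (-1.07) did. In the main setting the dimmer probes of MCM5 and MCM7 also passed. Ranked from the lowest, MCM2 lay at 2.13% of the counted genes and GINS3 at 9.28%, with MCM10, ranked by its bound, at 0.82%. The ring genes MCM2 to MCM7 had a median of -0.93 (range -1.32 to -0.80) and GINS1 to GINS3 had a median of -0.96 (range -0.99 to -0.63), and these medians lay within the error of a single ratio of each other. Genes lower with ATO made up 55.6% of all calls in PC3 cells, 29.7% when arrays were scaled on the 50th percentile and 68.2% when scaled on spike-in probes. On the 50th percentile 9 of the 10 members were called lower, GINS3 being the exception, against 6.59% of the counted genes; GINS3 was also the one not called with normexp (-0.54).

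In LNCaP cells the median log2 ratio of the members was -0.36, against 0.00 over the 13739 genes counted (quartiles -0.10 and 0.11). A single member, MCM10, was at least 1.5-fold lower, against 1.99% of the counted genes, of whose calls 41.8% were lower (24.9% on spike-in probes). By their brightest probes 4 members (MCM2, MCM5, MCM10 and GINS3) differed by more than 2 times their technical error. The smallest of these differences, that of MCM5, lay at 3.49% of the counted genes ranked from the lowest. The share of all genes past 2 of their own errors was not counted. The other probe of MCM5 lay at 1.70 errors and that of MCM7 at 2.06. On spike-in probes MCM2 (-0.30), MCM5 (-0.29) and GINS3 (-0.35) came within 2 errors of no difference. MCM2 to MCM7 had a median of -0.29 and GINS1 to GINS3 of -0.36. Genes called were unevenly spread over the LNCaP arrays, with 8.35% of the genes in the lower part of the array (rows past 266) past 1.5-fold in either direction against 1.43% in the upper part. In PC3 cells these shares were 21.3% and 15.7%, and 13.7% of the genes in the lower part were at least 1.5-fold lower against 6.95% in the upper part. The 6 members with a probe in the upper part had a median of -0.34 in LNCaP cells and -0.98 in PC3 cells, and the 4 in the lower part, MCM10 among them, had medians of -0.39 and -0.84.

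**Figure D3:**
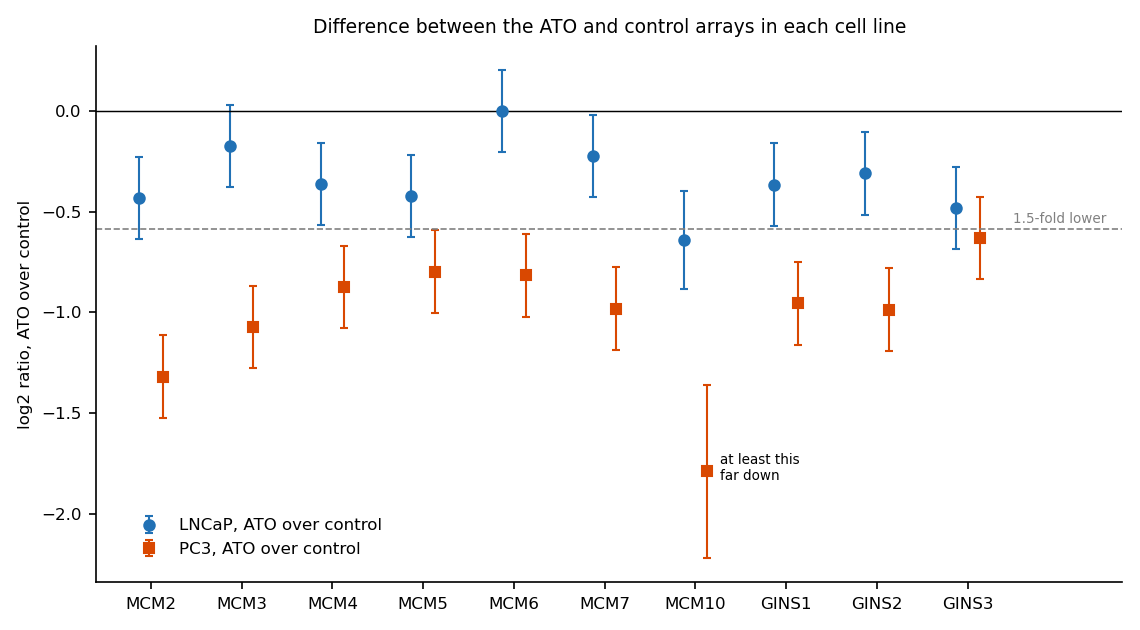
Log2 ratio of ATO over control for each member in LNCaP (blue circles) and PC3 cells (orange squares), 1 array a group, with the technical error estimated by the scanner software; the dashed line marks 1.5-fold lower. All 10 orange squares lie below the line, MCM10 being a bound drawn with the error of its measured value, and MCM10 is the blue circle below it.

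**Figure D4:**
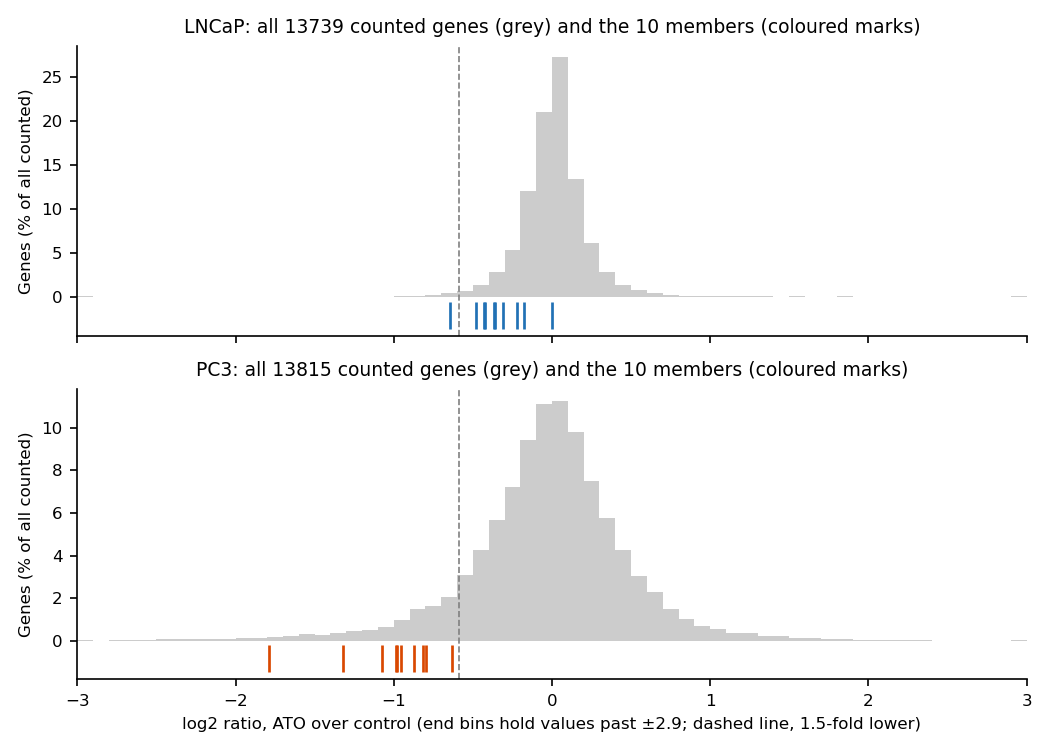
Share of the counted genes (grey bars, bins of 0.1) by log2 ratio of ATO over control in LNCaP (top) and PC3 cells (bottom), with the 10 members as coloured marks under the bars. The members span -0.64 to 0.00 in LNCaP cells and -1.79 (MCM10, a bound) to -0.63 in PC3 cells, where the bars themselves are also wider.

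In the main setting the ratio was lower in PC3 cells than in LNCaP cells for all 10 members. The difference of the log2 ratios had a median of -0.72 and, among the 9 members measured well above background throughout, ran from -0.90 in MCM3 to -0.15 in GINS3. For MCM10 the bound in PC3 cells gave -1.15. Over the 11991 genes with a ratio in both lines the median difference was 0.00 (quartiles -0.24 and 0.23). The difference of GINS3 was smaller than the error of either of its ratios. It turned the other way on the 50th percentile, with log2 ratios of -0.43 in PC3 cells and -0.50 in LNCaP cells. With 1 array a group the difference between the lines could not be tested.

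Between the untreated lines 1 member passed 2-fold. MCM2 was 2.27-fold lower in PC3 control than in LNCaP control (log2 ratio of PC3 over LNCaP -1.18 ± 0.20). Of the 15237 genes counted 19.0% were at least 2-fold lower and 20.6% at least 2-fold higher. MCM3 was 1.44-fold higher in PC3 control (log2 ratio 0.53 ± 0.20). MCM5 (-0.90), GINS2 (-0.58), MCM10 (-0.57) and MCM7 (-0.49) were lower in PC3 control, each by more than 2 errors. Ranked from the lowest, MCM5 lay at 21.5% and MCM7 at 33.3% of the counted genes. The other probes of MCM5 and MCM7 gave -0.81 and -0.70. For GINS1, MCM4, MCM6 and GINS3 the log2 ratio was between -0.17 and -0.06, each within 1 error. The members' median was -0.33 against -0.05 over all counted genes, but its sign turned when arrays were scaled on spike-in probes, which moved the median of all genes from -0.05 to 0.38; the members' median was 0.28 below that of all genes in the main setting and 0.20 below it on spike-in probes. On spike-in probes 0 members were called lower, against 9.9% of the counted genes, so that the call of MCM2 was lost. On those probes 1 member was called higher, against 4630 of the 15237 genes. On the 50th percentile 4 members were called at least 2-fold lower, against 31.1% of the counted genes. In the same order of scaling the split of all genes moved too, with genes lower in PC3 cells making up 24.6% and 67.7% of all calls, against 48.0% in the main setting.

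Taking the treatment over both lines with the line as a block, limma passed 0 of the 10 members and 0% of 11902 genes at an adjusted p under 0.05. All 10 members had an adjusted p of 0.762 in limma, and their unadjusted p ran from 0.018 for GINS3 to 0.189 for MCM6. By unadjusted p under 0.05 in limma, 7 of the members and 532 of the 11902 genes passed. Those 532 are fewer than this threshold alone would pass if no gene differed. The fit has 1 residual degree of freedom and takes a difference between the lines as error.

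Among the other genes that license and fire origins, 12 of 22 were at least 1.5-fold lower with ATO in PC3 cells, against 10.3% of all counted genes. Of 24 genes listed, 23 could be used, CDC45 being left out because its probe carried an outlier call on the LNCaP ATO array, and 22 were counted in PC3 cells. No gene of the list was at least 1.5-fold higher there, and the median log2 ratio was -0.61. In LNCaP cells 1 of 22 was at least 1.5-fold lower, against 1.99% of all counted genes, and the median was -0.26.

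Several of the 12 act just before or beside the ring. ORC1, the subunit of the origin recognition complex that varies with the cell cycle, had a log2 ratio of -1.52 in PC3 cells and -0.41 in LNCaP cells. CDT1, which brings the ring to the origin, had -1.16 and -0.32, and GMNN, the inhibitor of CDT1, had -0.89 and -0.40. CDC7, the kinase that phosphorylates the ring to start it, had -1.12 and -0.24. ORC6, a further subunit of the origin recognition complex, had -0.70 and -0.38. CDC6, the loading partner of CDT1, was not well above background on either PC3 array and has no ratio there.

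Others act at the moving helicase or beside it. TIPIN, of the fork protection complex, had a log2 ratio of -1.11 in PC3 cells and -0.20 in LNCaP cells. CLSPN, which carries the checkpoint signal at the fork, was at least 2.47-fold lower in PC3 cells, where the ATO array was not well above background, and had -0.45 in LNCaP cells. WDHD1, which links the helicase to polymerase alpha, had -0.81 and -0.18. GINS4, the fourth subunit of the GINS complex, had -0.78 and -0.32, and its value in PC3 cells lay between those of GINS1 and GINS3. MCMBP, which binds MCM proteins outside the ring, had -0.80 and -0.07, RECQL4, needed to fire origins, had -0.62 and -0.28, and MCM8, a paralog that acts in recombination, had -0.61 in PC3 cells and -0.67 in LNCaP cells, the one gene of the list past 1.5-fold in that line. ORC4 was the gene of the list with a higher value in both lines, with log2 ratios of 0.28 and 0.22.

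Genes of the replication fork behind the helicase gave a similar picture, with 12 of 25 at least 1.5-fold lower in PC3 cells, against 10.3% of all counted genes. A single gene was at least 1.5-fold higher (POLD4, log2 ratio 1.02), and the median was -0.56. PCNA, the sliding clamp of the polymerases, had 8514 units without and 7371 with ATO in LNCaP cells, and 10301 without and 5134 with ATO in PC3 cells, which gave log2 ratios of -0.31 in LNCaP cells and -0.96 in PC3 cells. The value in PC3 cells was close to the median of the MCM and GINS genes.

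Genes of G2 and M phase, also marks of dividing cells, had a smaller median in PC3 cells. Of 18 genes 2 were at least 1.5-fold lower, a share close to the 10.3% of all counted genes. These were MKI67 with a log2 ratio of -1.03 and TOP2A with -0.81, and the median of the list was -0.38. All 18 were below 0, as were 6999 of the 13815 counted genes. In LNCaP cells their median was -0.29, against -0.28 for the fork list and -0.36 for the members, so there the lists lay close together. The 11 reference genes had medians of -0.02 in LNCaP cells and 0.07 in PC3 cells, and none passed 1.5-fold in either line. Where a promoter was at hand, an E2F word was found in 10 of 22 licensing genes, 8 of 22 fork genes and 2 of 14 genes of G2 and M phase. It was also found in 1 of 8 reference genes and in 3.99% of all genes. A link between the words and the ratios was not tested.

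**Figure D5:**
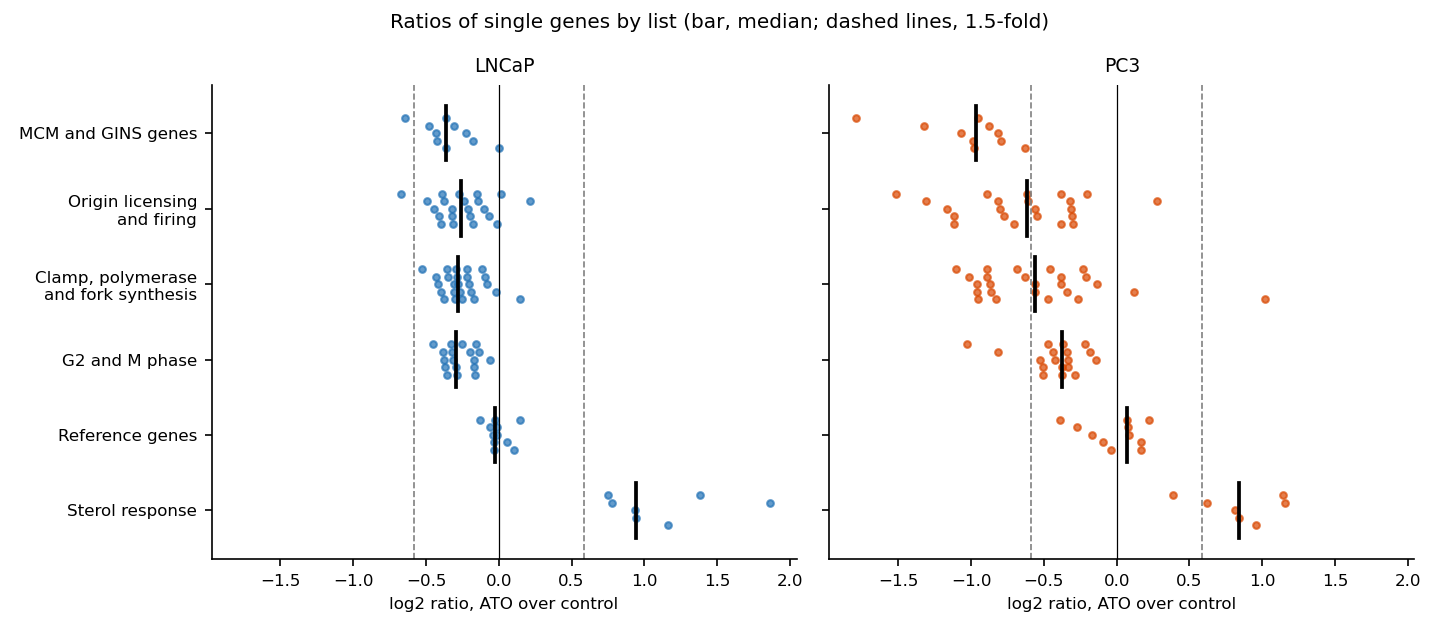
Log2 ratio of ATO over control of each gene (points) by list, with the median of the list as a black bar, in LNCaP (left) and PC3 cells (right); dashed lines mark 1.5-fold in either direction. In PC3 cells the medians step from -0.97 for the MCM and GINS genes through -0.61, -0.56 and -0.38 to 0.07 for the reference genes, and in LNCaP cells the medians of the same 4 replication and cell cycle lists lie between -0.36 and -0.26.

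A median profile was taken over the 9 members that were well above background throughout. The genes nearest to it over the 4 arrays were found by the root mean square distance of their centred log2 levels. This profile stood at 0.38 in LNCaP control and 0.29 in LNCaP ATO. It thus held little of the lower values in LNCaP cells, where the median log2 ratio of the members was -0.36. Of 11007 genes compared, PAK1IP1 (distance 0.037), an unnamed transcript read by probe A_33_P3424153 (0.049), ZNF280B (0.055), CENPQ (0.056) and ZNF667 (0.058) were nearest, while the median gene lay at 0.49. PAK1IP1 had log2 ratios of -0.78 in PC3 cells and -0.16 in LNCaP cells, and CENPQ, a subunit of the inner kinetochore, had -0.70 and -0.17. The unnamed transcript had -0.78 and -0.21. ZNF280B had -0.87 and 0.03 and ZNF667 had -0.76 and -0.005, so these genes were nearly unchanged in LNCaP cells. The members themselves lay between 0.048 (MCM6) and 0.54 (MCM2), so 8 of the 9 members were farther from their own median than the 5 listed genes were, MCM2 farther than the median gene, and with 4 arrays the measure says little about any 1 gene.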

How the data were processed

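Total RNA of 4 samples was hybridised to 1-colour Agilent human arrays, 4 groups with 1 array each, all on 1 slide and in 1 scan, each at a position of its own, so that position and group cannot be told apart. The authors obtained each spot's intensity with Agilent Feature Extraction 9.5.3.1. Per the file headers a fitted spatial background had been subtracted and a multiplicative trend removed, and surrogates replaced intensities not above background; other yes or no columns hold the calls per spot. The deposited value table holds a ratio per probe, which the authors made with GeneSpring per the study's methods; set against the scanner files, it matched processed intensity over the array's 75th percentile within 2% for 99.0% to 99.7% of the probes above 1, and served as an alternative. Probe coordinates are those of hg18, no exon annotation of which was used here, so exon, intron and UTR are not given.

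Outlier spots were left out, repeated spots were averaged as log2 intensities, and each array's 75th percentile was subtracted. The brightest probe with unflagged spots on all 4 arrays stood for a gene, and older symbols were matched where the array has them. Genes were counted where at least 1 array of a comparison was well above background (more than 50% of spots). Where only 1 was, the other was raised to the lowest intensity well above background on its array, giving a bound written as "at least", set to 0 if it turned the other way. Thresholds were 1.5-fold within a line and 2-fold between untreated lines. The number of arrays limits the precision, and within a line there is no test. The one test was limma 3.58.1 in R 4.3.3 (lmFit and eBayes, two-sided, Benjamini-Hochberg over all genes tested), with the line as a block and 1 residual degree of freedom; its script was tested on simulated data.

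The members, gene lists, thresholds and tests were chosen with earlier results of these data known. All 10 members were described with every probe; of the other lists, counts and medians are given, with values for origin licensing and firing genes past 1.5-fold in either line, for PCNA and for the 5 genes of nearest profile. Genes outside that rule (CDC6, ORC4, POLD4, MKI67, TOP2A and the line markers) were named after their values were seen. Alternatives were scaling on the 50th percentile, quantiles or spike-in probes, normexp background correction with an offset of 50, outlier spots kept, the deposited table, the median over probes, other filters on dim probes, other fold thresholds and an intensity trend in eBayes.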

Additional observations from a re-analysis of the deposited data

How the results depend on the processing

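In PC3 cells all 60 ratios of the 10 members under 6 alternatives of scaling, background and spot handling stayed below 0 (log2 ratio -1.87 to -0.43). In LNCaP cells the only sign changes among 60 were 4 of MCM6. The members called lower in PC3 cells were 9 or 10 under the alternatives at 1.5-fold and 3 at 2-fold. In LNCaP cells 0 were called on spike-in probes, with normexp and at 2-fold, against 1 otherwise. The members' median in PC3 cells was -0.77 on the 50th percentile, and the median PC3 minus LNCaP difference was -0.51 on the 50th percentile and -0.93 on spike-in probes; the former scaling moved the median of all genes in PC3 cells by 0.19, the latter that in LNCaP cells by 0.13. Between the untreated lines 4 members were called on the 50th percentile, all lower, against 31.1% of the counted genes. At 4-fold 0 were called, and on spike-in probes 1 that was higher in PC3 cells instead of lower, against 4630 of 15237 genes. In limma 0 members passed under any alternative run (adjusted p 0.646 to 0.985), while on the 50th percentile 5 of all genes did, against 0 in the main setting. An alternative chosen after seeing the data, the 6 members in the upper part of the array, gave medians of -0.34 in LNCaP cells, -0.98 in PC3 cells and -0.72 for the difference. The limma fit pairs ATO with control within each line, and with 1 array a group no other pairing exists. The cause of the shifts other than by scaling was not tested. Signal over background limits MCM10, whose level in PC3 ATO is a bound.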
